A study of Mus musculus with 6 samples.

Results

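The genes described here are 48 interferon-stimulated effector genes of the mouse, whose products act against viruses inside the cell, at its membranes or after secretion. They were chosen by name, as members of the Oas, Ifit, Ifitm, Mx and Parp families and as other effectors with known antiviral or ISG15-related functions. Of the 48 genes, 41 had an entry under their own symbol among the 26082 different names of the expression table, and 40 of these averaged 1 FPKM or more across all samples and were tested. FPKM, fragments per kilobase of transcript scaled to the mapped fragments of the sample, divides out transcript length, so levels can be set side by side between genes. Ifi44 was below this mean, 6 genes lay in 5 entries that join several genes, and Ifi27 stood under the older symbol Ifi27l1; these are described apart from the counts.

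The RNA-Seq data compare leukemia cells of mice that received vehicle with cells of mice that received DS-5272, an inhibitor of the binding between MDM2 and p53, and ask which transcripts the compound changes in vivo. The strain is C57BL/6J and the transduced gene is MLL-AF9 in all 6 samples. Cells of 3 samples were collected 24 h after oral vehicle, and those of the other 3 samples 24 h after an oral dose of 80 mg/kg DS-5272. The fusion gene was delivered by retrovirus to c-Kit+ marrow progenitors, and the leukemia was passed serially through recipient mice. The recipients of the passaged cells were not irradiated, so their marrow may hold cells of the host. The labels name bone marrow cells as the source; a sort before RNA extraction, the p53 genotype of these samples and the age of the mice are not given in the sources used here. The labels do not say that the replicates are separate animals, so p-values measure the spread between these samples, which may be in part technical.

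Type I interferons bind a receptor of IFNAR1 and IFNAR2, whose kinases JAK1 and TYK2 phosphorylate STAT proteins. With IRF9 these form a complex that binds the interferon-stimulated response element, a DNA motif found near many of the genes described here, while STAT dimers formed after interferon gamma bind another motif, the GAS element. Some effectors also respond to IRF1, IRF3 or IRF7 without the complete complex, and basal expression in hematopoietic cells is known for several of them.

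Leukemia and myeloid markers were expressed in every sample. All 11 entries of that list passed the filter, and their FPKM values summed to 1386, 1544 and 1727 FPKM with vehicle and 2208, 2447 and 3338 FPKM with DS-5272. Cd33, the highest by the mean of all samples, was at 212, 287 and 294 FPKM with vehicle and 623, 625 and 868 FPKM with DS-5272. The top entry of a single sample was Spi1, the joined Hoxa9 and Hoxa10 entry and Mpo in vehicle replicates 1, 2 and 3, Cd33 in DS-5272 replicate 1 and Itgam in DS-5272 replicates 2 and 3. Within the list Mpo, a granule enzyme of immature myeloid cells, and Kit, a progenitor receptor, were called lower with DS-5272 (log2 fold changes −5.07 and −1.96, adjusted p = 0.00136 and 0.00462 from limma). Itgam and Csf1r, which are higher in mature myeloid cells, were called higher (2.1 and 1.91, adjusted p = 0.00306 and 0.000605 from limma). Of the 11 entries limma called 5 higher and 2 lower, beside 24.2% and 22.0% of all tested genes. The other higher calls were Ptprc, Spi1 and Cd33 (log2 fold changes 1.18, 0.75 and 1.41). The joined Hoxa9 and Hoxa10 entry, Meis1, Pbx3 and Cebpa were not called (log2 fold changes −0.23, 0.24, 0.10 and −0.38).

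No NK cell marker of 10 passed the filter, and the list summed to 1.01, 0.690 and 1.51 FPKM with vehicle and 4.57, 2.64 and 2.95 FPKM with DS-5272, with Gzma highest in every sample but vehicle replicate 1, where Klrk1 was. The T cell list had 1 of 9 entries above the filter and summed to 2.70, 2.84 and 2.93 FPKM with vehicle and 6.43, 3.77 and 4.34 FPKM with DS-5272. Lat led it in every sample but DS-5272 replicate 1, where Cd4 was at 3.28 FPKM, against at most 0.314 FPKM in the other samples. In the B cell list 1 of 10 passed and the sum was 5.50, 5.32 and 4.66 FPKM with vehicle and 5.79, 4.64 and 3.91 FPKM with DS-5272, led by Cd79b. Of 8 plasmacytoid dendritic cell markers besides Bst2, Tcf4 and Runx2 passed, and the list summed to 50.7, 37.3 and 34.2 FPKM with vehicle and 57.8, 49.2 and 57.8 FPKM with DS-5272. Tcf4 made up most of that sum, and the defining markers Siglech and Klk1 were at or near 0. Runx2 was called higher (log2 fold change 1.07, limma adjusted p = 0.0125), and Tcf4 was not called (0.17, adjusted p = 0.561 from limma). Of all tested genes 24.2% were called higher. The stroma and endothelium list had 2 of 10 above the filter and summed to 60.2, 31.1 and 29.1 FPKM with vehicle and 113, 73.7 and 81.3 FPKM with DS-5272, nearly all of it Pecam1. Pecam1 was called higher (log2 fold change 1.19, limma adjusted p = 0.0246). The Pecam1 call was lost without vehicle replicate 2 or 3 (limma adjusted p = 0.0844 and 0.0763) or DS-5272 replicate 1 (0.0592). It was also lost with a common upper quartile or total (0.0521 and 0.0980, limma adjusted p). Col1a1 was called higher only with the replicate number as a block (0.00397, against 0.0842 without it, both adjusted p from limma). Of the 8 megakaryocyte markers 2 passed, with a sum of 3.03, 2.94 and 3.16 FPKM with vehicle and 8.79, 6.63 and 6.22 FPKM with DS-5272. The top entry differed by sample (Gp1ba, Gp1ba and Gp9 with vehicle, Pf4, Pf4 and Gp9 with DS-5272). Pf4 was at 0.149, 0 and 0.167 FPKM with vehicle and 2.45, 1.60 and 1.19 FPKM with DS-5272, and Ppbp at 0.117, 0.0288 and 0 FPKM with vehicle and 1.28, 1.18 and 0.605 FPKM with DS-5272. Gp1ba had a lower mean with DS-5272, at 0.995, 0.938 and 0.828 FPKM with vehicle and 1.23, 0.559 and 0.641 FPKM with DS-5272. The groups overlapped for Gp1ba and for Gp9. Neither tested marker was called by limma, and only Itga2b was called higher with the replicate number as a block (0.0249, against 0.0591 without it, both adjusted p from limma).

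As deposited, every DS-5272 sum was above every vehicle sum in the leukemia, NK, T, stroma and megakaryocyte lists, and also in the macrophage and erythroid lists. These sums were not rescaled to a common total, which could change this order. All 12 bone marrow macrophage markers passed the filter and summed to 93.5, 117 and 159.9 FPKM with vehicle and 683, 221 and 297 FPKM with DS-5272. Of these 4 were called higher by limma, beside 24.2% of all tested genes, and 6 with the replicate block, beside 30.3%; the block added Cd5l and Spic (0.0393 and 0.0421, limma adjusted p, against 0.120 and 0.120 without it). Vcam1, the top entry of the vehicle samples, was at 36.6, 64.1 and 82.8 FPKM with vehicle and 143, 74.8 and 85.7 FPKM with DS-5272. In the DS-5272 samples Apoe (210.9 FPKM, replicate 1) and Adgre1 (79.1 and 116 FPKM, replicates 2 and 3) were higher. C1qb was at 1.97, 1.53 and 2.95 FPKM with vehicle and 58.2, 14.1 and 15.6 FPKM with DS-5272 (log2 fold change 2.99 ± 0.52, limma adjusted p = 0.00600). For the erythroid list, of which 5 of 8 entries passed, the sum was 23.4, 24.4 and 23.1 FPKM with vehicle and 293, 75.6 and 37.3 FPKM with DS-5272. The entry that joins beta-globin genes, the top entry of the DS-5272 samples, was at 5.26, 2.21 and 1.01 FPKM with vehicle and 138, 34.7 and 18.6 FPKM with DS-5272. It was called higher (log2 fold change 3.74, limma adjusted p = 0.00887), as were Hba-a1 and Hba-a2 (3.31 and 3.30, adjusted p = 0.0175 and 0.0147 from limma). The Hba-a1 call was lost without vehicle replicate 2 or 3 (limma adjusted p = 0.0567 and 0.0550), and the Hba-a2 call without vehicle replicate 2 (0.0529). Of the 5 tested erythroid entries limma called 3 higher and 1 lower, beside 24.2% and 22.0% of all tested genes. Tfrc, the transferrin receptor and top entry of the vehicle samples, was called lower, at 13.5, 19.5 and 19.6 FPKM with vehicle and 8.99, 13.5 and 6.08 FPKM with DS-5272 (log2 fold change −0.86 ± 0.28, limma adjusted p = 0.0413), with overlapping groups. The Tfrc call was lost without vehicle replicate 2 or 3 (limma adjusted p = 0.124 and 0.116) or DS-5272 replicate 1 or 3 (0.0788 and 0.0864). Klf1 was at 0.188, 0.387 and 0.407 FPKM with vehicle and 0.0210, 0.0720 and 0.261 FPKM with DS-5272, and Epb42 and Slc4a1 stayed under 1 FPKM. The macrophage and erythroid sums were highest in DS-5272 replicate 1. In bulk samples, more cells of a type and more RNA per cell cannot be told apart, and the part of these cells in the results below was not tested. Without DS-5272 replicate 1, 35 of the 40 members counted below were called higher by limma, with a median log2 fold change of 1.58, beside 26.3% of all tested genes and a median of 0.05 in that fit.

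Of the 40 tested members, 38 were called higher with DS-5272 by limma (adjusted p under 0.05), whereas 24.2% of the 11130 tested genes were called higher and 22.0% were called lower. No member was called lower by limma, and none had a fall with an unadjusted p under 0.05, while 39 had a rise at that level. Of all tested genes 26.1% had such a fall and 29.5% such a rise. Fold changes are differences of log2(FPKM + 1), a scale that shrinks changes of weakly expressed genes, and are given ± standard error. Their median over the members was 1.75 (quartiles 1.12 and 2.2), and over all tested genes it was 0.04 (quartiles −0.34 and 0.46). A log2 fold change of at least 1 was reached by 31 members (77.5%) and by 9.81% of all tested genes. For 38 members all 3 DS-5272 values lay above all 3 vehicle values, which held for 32.1% of the tested genes. With the 3 same-numbered samples taken as pairs, 39 of 40 members were higher with DS-5272 in every pair, beside 41.8% of all tested genes; the exception was Pnpt1. Of the 38 calls, 30 were kept in all 6 fits that each left out 1 sample, and 8 were lost in at least 1 of them. In these fits from 14.8% to 26.3% of all tested genes were called higher. How many of all 2697 higher calls were kept in all 6 fits was not counted, so 30 of 38 has no background to be read against.

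The scaling of the samples moved these numbers without turning any member's direction. Relative to vehicle replicate 1, the FPKM sum over all genes was 1.11 and 1.13 in the other vehicle samples and 1.12, 1.3 and 1.48 in the DS-5272 samples. Rescaling to a common total moved the median log2 fold change of all tested genes from 0.04 to −0.19 and that of the members from 1.75 to 1.49, so that the distance between the medians was 1.70 as deposited and 1.68 rescaled. With that scaling 31 of the 40 members were called higher by limma, beside 1713 higher and 3555 lower among all genes (32.5% of the calls higher). With a common upper quartile 34 members were called, beside 2233 higher and 3179 lower (41.3%). As deposited, 2697 genes were called higher and 2451 lower (52.4%).

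**Figure D1:**
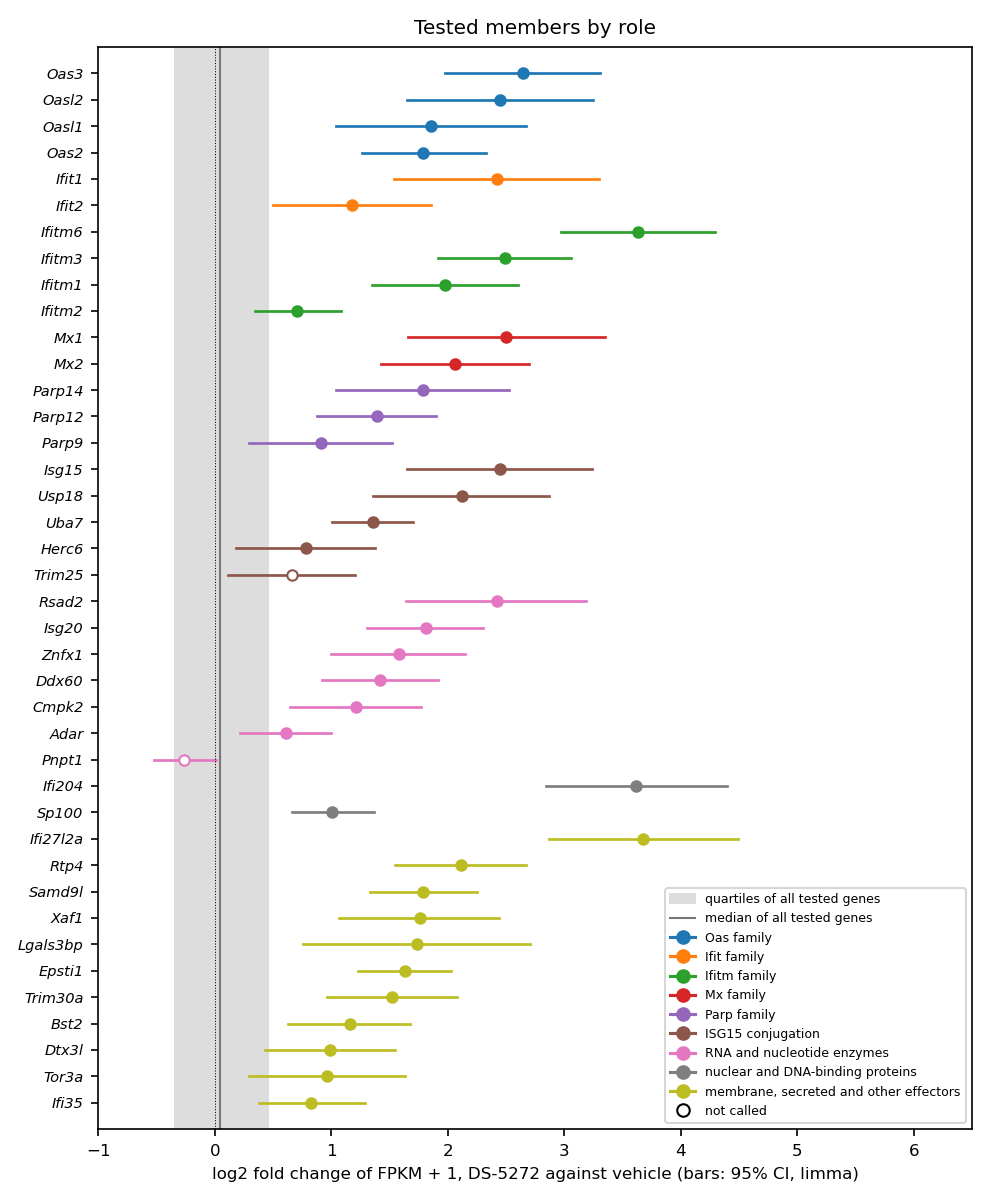
Log2 fold change of FPKM + 1 between DS-5272 and vehicle for the 40 tested members, ordered by role, with bars for the 95% confidence interval from limma (n = 3 per group), filled points for members called higher and open points for those not called. The grey band spans the quartiles of all tested genes, −0.34 to 0.46, and every member but Pnpt1 lies to the right of it.

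The samples did not contribute alike within a group. Vehicle replicate 1 was the highest vehicle sample for 33 of 40 members, against 41.2% of all tested genes, and vehicle replicate 3 was the lowest for 29, against 28.1% of all genes. DS-5272 replicate 2 was the lowest treated sample for 35 members, against 31.1% of all genes, and the highest for none, against 23.7%. The top treated value was in DS-5272 replicate 1 for 25 members, against 27.7% of all genes, and in DS-5272 replicate 3 for 15, against 48.7%. Among these 15 were all 4 Ifitm genes, Oas2, Oas3, Ddx60, Samd9l and Epsti1. Measured as the median over members of the log2 difference from the vehicle mean, the vehicle samples stood at 0.34, −0.12 and −0.22 and the DS-5272 samples at 1.87, 1.27 and 1.85. The gap between the highest vehicle and the lowest treated sample was thus wider than the spread within either group. Summed over the 40 members, FPKM was 1392, 1245 and 1113 with vehicle and 4020, 3124 and 4380 with DS-5272. The share of the whole FPKM sum was 0.313%, 0.253% and 0.222% against 0.805%, 0.539% and 0.662%. The depth read from steps between low FPKM values, relative to vehicle replicate 1, was 0.807 and 0.889 in vehicle replicates 2 and 3 and 0.742, 0.655 and 0.540 in the DS-5272 samples. Counting error of a given FPKM value was therefore larger in the treated samples.

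**Figure D2:**
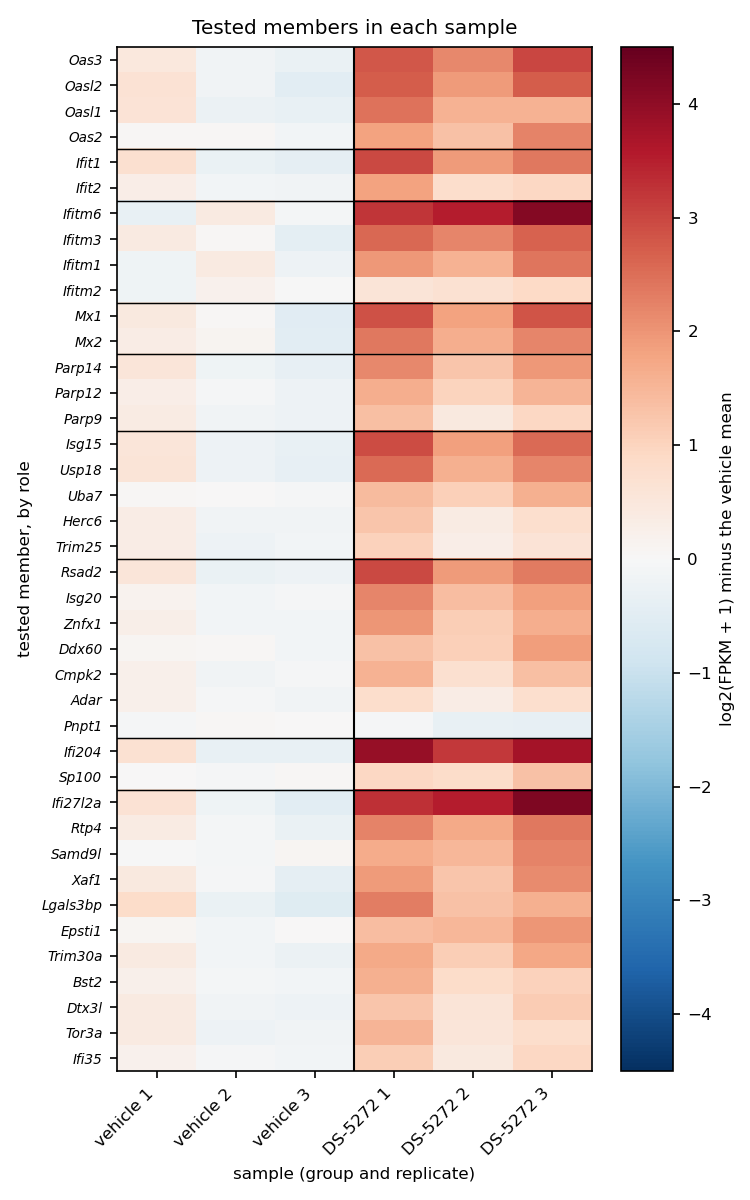
Log2(FPKM + 1) of the 40 tested members (vertical axis, by role) in the 6 samples (horizontal axis), each minus the mean of the 3 vehicle samples. DS-5272 replicate 2 is the palest treated column (median 1.27), and vehicle replicate 1 is the reddest vehicle column (median 0.34).

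Promoter sequence was not read when the members were chosen. The members were, however, chosen as interferon-stimulated genes, near many of which the response element is known. Its frequency among them is therefore not independent of the choice. In the RefSeq promoter table (GRCm38.p6, 250 bases before to 50 after each start), 37 of the 48 genes had an entry; Oas2, Mx1, Mx2, Parp9, Parp14, Usp18, Rtp4, Tor3a, Ifi204, Ifi27 and Ifi27l2a had none. At 77.1% the match is below 80%, so a share over the whole list is void and only the matched genes are described. The core of the interferon-stimulated response element, GAAANNGAAA or TTTCNNTTTC on the other strand, was found in a promoter of 14 of these 37 genes beside 3.99% of the 27025 genes of the table (3.44% of its 32851 promoters). These were Bst2, Ddx60, Eif2ak2, Ifi203, Ifit1, Ifit3, Ifitm2, Ifitm3, Isg15, Oas1a, Oas1g, Oas3, Rsad2 and Trim30a. The GAS letters TTCNNNGAA, which read the same on both strands, occurred in 9 of the 37 genes, beside 9.55% of all genes (8.30% of all promoters); Bst2, Eif2ak2, Ifitm3 and Oas1a had both motifs. A match describes letters only and is neither a measured site nor a cause. Stretches that lie upstream of the start are shown for 8 genes whose RNA is described below, 5′ to 3′ along the gene, with the response element core in capitals and overlapping matches run together.
Isg15, chr4:156200855-156200916, minus strand: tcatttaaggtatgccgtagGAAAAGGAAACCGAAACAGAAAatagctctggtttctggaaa
Ifit1, chr19:34640765-34640833, plus strand: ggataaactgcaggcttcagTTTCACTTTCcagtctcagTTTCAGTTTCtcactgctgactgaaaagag
Ifit3, chr19:34583353-34583436, plus strand: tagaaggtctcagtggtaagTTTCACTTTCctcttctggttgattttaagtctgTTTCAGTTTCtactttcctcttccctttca
Oas1a, chr5:120907526-120907565, minus strand: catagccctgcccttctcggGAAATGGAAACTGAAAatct
Oas1g, chr5:120887614-120887651, minus strand: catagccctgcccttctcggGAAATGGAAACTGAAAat
Oas3, chr5:120777705-120777754, minus strand: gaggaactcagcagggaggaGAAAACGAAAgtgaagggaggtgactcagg
Rsad2, chr12:26456543-26456592, minus strand: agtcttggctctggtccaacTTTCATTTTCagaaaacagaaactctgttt
Bst2, chr8:71537567-71537622, minus strand: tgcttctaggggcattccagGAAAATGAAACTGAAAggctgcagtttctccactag
In Isg15 3 matches overlap, and in Ifit1 and Ifit3 a pair of separate matches lies on the strand opposite to the gene. The stretches of Oas1a and Oas1g carry the same run of letters up to their last bases, next to the start of transcription.

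The Oas family encodes enzymes that make 2'-5'-linked oligoadenylates when they bind double-stranded RNA, and the Oasl proteins are relatives of which OASL2 keeps that activity. All 4 tested members rose (all tested genes: 24.2%), by a median log2 fold change of 2.16. Oas3 was at 11.2, 6.96 and 6.20 FPKM with vehicle and 59.8, 38.4 and 70.6 FPKM with DS-5272 (replicates 1, 2 and 3 in this order here and below), a 6.93-fold higher mean (log2 fold change 2.65 ± 0.28, limma adjusted p = 0.00176). Its lowest treated value was over 3 times its highest vehicle value. Oasl2 was at 29.4, 16.4 and 13.1 FPKM with vehicle and 127, 73.1 and 126 FPKM with DS-5272 (log2 fold change 2.45 ± 0.33, limma adjusted p = 0.00338), and DS-5272 replicate 2 was the low treated sample. Oasl1, which is known to inhibit translation of Irf7 mRNA, was at 7.88, 3.73 and 3.49 FPKM with vehicle and 30.2, 15.8 and 16.2 FPKM with DS-5272 (log2 fold change 1.86 ± 0.34, limma adjusted p = 0.00707). Vehicle replicate 1 and DS-5272 replicate 1 stood above their groups for this gene, and the groups did not overlap. Oas2 was at 21.0, 21.4 and 18.6 FPKM with vehicle and 74.2, 52.3 and 99.4 FPKM with DS-5272 (log2 fold change 1.79 ± 0.22, limma adjusted p = 0.00265), with vehicle samples close together and treated samples spread. Oas1a and Oas1g share 1 entry, at 83.9, 64.8 and 58.2 FPKM with vehicle and 156, 143 and 203 FPKM with DS-5272 (log2 fold change 1.27 ± 0.19, limma adjusted p = 0.00397). These genes share 40.9% (of Oas1a) and 31.2% (of Oas1g) of their stretches of 100 bases in annotated transcripts, so fragments cannot be assigned to either with certainty. Their genes lie at chr5:120896256-120907521 and chr5:120876142-120887613 in GENCODE's annotation of GRCm38, in a cluster with Oas2 (chr5:120730333-120749853) and Oas3 (chr5:120753098-120777661), while Oasl1 and Oasl2 are neighbours elsewhere on chromosome 5.

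Of the relatives of the Oas genes, 2 passed the filter, with log2 fold changes of 0.15 and 0.78, and neither was called. Oas1b was at 4.61, 2.01 and 1.92 FPKM with vehicle and 7.85, 3.41 and 5.35 FPKM with DS-5272, with overlapping groups (adjusted p = 0.101 from limma, 0.00821 with the replicate number as a block and 0.0404 without vehicle replicate 1). Oas1c stood at 5.79, 6.45 and 6.65 FPKM with vehicle and 6.85, 6.42 and 7.99 FPKM with DS-5272 (adjusted p = 0.336 from limma), and the sign of its difference turned with a common total. Oas1d, Oas1e, Oas1f and Oas1h did not pass the filter.

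The Ifit proteins bind viral RNA that lacks the cap modifications of host mRNA. Ifit1, which lies at chr19:34640871-34650009, was at 8.98, 3.94 and 3.65 FPKM with vehicle and 46.8, 21.9 and 31.0 FPKM with DS-5272, a 6.02-fold higher mean (log2 fold change 2.42 ± 0.37, limma adjusted p = 0.00443). Replicate 1 was high in both groups, and the lowest treated value was over 2 times the highest vehicle value. Ifit2 was at 15.8, 11.3 and 11.2 FPKM with vehicle and 46.9, 22.3 and 25.1 FPKM with DS-5272 (log2 fold change 1.18 ± 0.29, limma adjusted p = 0.0164). Its groups did not overlap, but the call was lost without vehicle replicate 2 or 3 (limma adjusted p = 0.0592 and 0.0543) and with a common total (0.0778). The entry that joins Ifit3 with its near copy Ifit3b was at 8.70, 2.23 and 2.2 FPKM with vehicle and 60.7, 29.4 and 34.9 FPKM with DS-5272 (log2 fold change 3.13 ± 0.48, limma adjusted p = 0.00443), the largest rise among the joined entries. Ifit3 shares 31.7% of its stretches of 100 bases with Ifit3b. The relatives Ifit1bl1 and Ifit1bl2 share an entry too, at 2.93, 1.31 and 0.916 FPKM with vehicle and 15.3, 7.04 and 8.34 FPKM with DS-5272 (log2 fold change 2.04 ± 0.35, limma adjusted p = 0.00592). All of these genes lie together on chromosome 19, and the promoters of Ifit1 and Ifit3 shown above each hold 2 cores, while the promoters of Ifit2 in the table hold none.

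**Figure D3:**
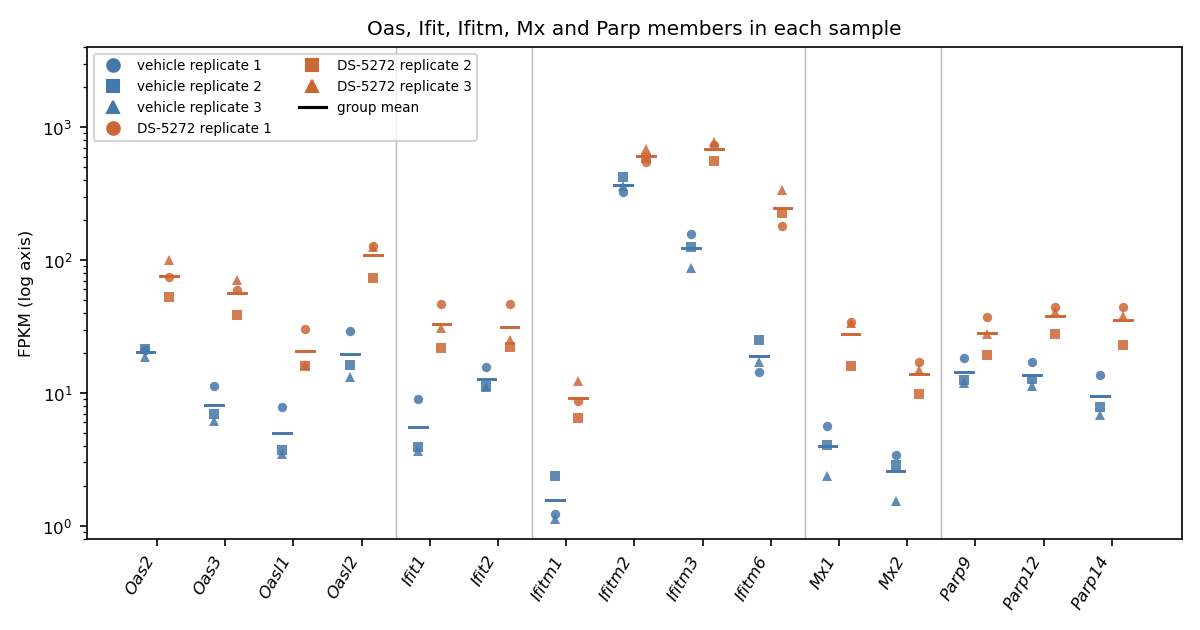
FPKM on a log axis of the 15 tested members of the Oas, Ifit, Ifitm, Mx and Parp families (horizontal axis), with vehicle samples in blue, DS-5272 samples in orange, a symbol for each replicate number and a line at each group mean (n = 3). No orange point lies at or below a blue point of the same gene, and the gap is narrowest in Parp9, where the highest vehicle value was 18.4 and the lowest treated value 19.3 FPKM.

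Ifitm proteins sit in plasma and endosomal membranes and hinder fusion of enveloped viruses. This family held both the largest family rise and the smallest. Ifitm6 was at 14.4, 24.9 and 17.2 FPKM with vehicle and 179, 225 and 336 FPKM with DS-5272, a 13.1-fold higher mean (log2 fold change 3.63 ± 0.28, limma adjusted p = 0.000713). DS-5272 replicate 3 was its highest sample and DS-5272 replicate 1 the lowest treated sample, unlike most members. Ifitm3, the best known inhibitor of viral entry in the family, was at 158, 124 and 87.2 FPKM with vehicle and 731, 557 and 767 FPKM with DS-5272 (log2 fold change 2.49 ± 0.24, limma adjusted p = 0.00134). Ifitm1 was the least abundant, at 1.23, 2.36 and 1.13 FPKM with vehicle and 8.73, 6.52 and 12.3 FPKM with DS-5272 (log2 fold change 1.98 ± 0.26, limma adjusted p = 0.00322). Ifitm2, at 324, 424 and 358 FPKM with vehicle and 544, 585 and 684 FPKM with DS-5272 (log2 fold change 0.71 ± 0.15, limma adjusted p = 0.0105), had the highest vehicle level of any tested member and the smallest family rise. Its 3 treated values were above the 3 vehicle values, and its call was lost with quantile normalization (log2 fold change 0.28, adjusted p = 0.061 from limma). Means were in the order Ifitm2, Ifitm3, Ifitm6 and Ifitm1 with vehicle; with DS-5272 the values of Ifitm3 and Ifitm2 overlapped. Ifitm2 was summed over 2 lines of the table, and 34.9% of its stretches of 100 bases occur in other annotated genes. These 4 genes lie within 1 region of chromosome 7, from chr7:140954837-140955987 for Ifitm2 to chr7:141015699-141017924 for Ifitm6. Outside the members, Ifitm10 was at 0.555, 0.748 and 0.957 FPKM with vehicle and 0.910, 1.68 and 3.48 FPKM with DS-5272, with overlapping groups (adjusted p = 0.102 from limma, 0.0291 with the replicate block and 0.0237 without DS-5272 replicate 1), and Ifitm5 and Ifitm7 did not pass the filter.

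Mx proteins are dynamin-like GTPases that block viral nucleocapsids, although inbred strains such as C57BL/6 are known to carry defective Mx1 alleles, so the RNA level says nothing of functional protein. Mx1 was at 5.60, 4.06 and 2.38 FPKM with vehicle and 34.1, 15.9 and 33.7 FPKM with DS-5272 (log2 fold change 2.5 ± 0.36, limma adjusted p = 0.00375), and Mx2 at 3.40, 2.85 and 1.55 FPKM with vehicle and 17.1, 9.87 and 14.9 FPKM with DS-5272 (log2 fold change 2.06 ± 0.27, limma adjusted p = 0.00293). For both genes vehicle replicate 3 was lowest, DS-5272 replicate 2 was the lowest treated sample, and the groups did not overlap. The ratio of means was 6.95 for Mx1 and 5.38 for Mx2. They are neighbours on chromosome 16 and share about 1% of their stretches of 100 bases (0.929% of Mx1 and 1.13% of Mx2).

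Parp9, Parp12 and Parp14 belong to the ADP-ribosyltransferases, of which these and a few others are interferon-inducible. Parp14, a mono-ADP-ribosyltransferase with macrodomains, was at 13.7, 7.90 and 6.87 FPKM with vehicle and 44.4, 22.9 and 38.1 FPKM with DS-5272 (log2 fold change 1.79 ± 0.31, limma adjusted p = 0.00617). Parp12, which is known to restrict several RNA viruses, was at 17, 12.8 and 11.3 FPKM with vehicle and 44.3, 27.9 and 40.9 FPKM with DS-5272 (log2 fold change 1.39 ± 0.21, limma adjusted p = 0.00448). Parp9 was at 18.4, 12.6 and 11.9 FPKM with vehicle and 37.1, 19.3 and 28.0 FPKM with DS-5272 (log2 fold change 0.91 ± 0.26, limma adjusted p = 0.0281). DS-5272 replicate 2 of Parp9 came close to vehicle replicate 1. The Parp9 call was lost without vehicle replicate 2 or 3 (limma adjusted p = 0.0923 and 0.0886), without DS-5272 replicate 1 or 3 (0.0570 and 0.0702), with a common upper quartile (0.0660) and with a common total (0.139). Dtx3l, the ubiquitin ligase that pairs with PARP9, is its head-to-head neighbour on chromosome 16 (chr16:35938470-35972605 for Parp9 and chr16:35926511-35939151 for Dtx3l). Exons of these neighbours overlap on opposite strands, and although the libraries kept the strand, the counting is not stated to use it.

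Of 13 tested relatives among the other ADP-ribosyltransferases 4 were called higher and 2 lower by limma, beside 24.2% and 22.0% of all tested genes. With the replicate block 7 were called higher and 2 lower, beside 30.3% and 24.9% of all tested genes. Parp3, a DNA repair enzyme, was at 18.3, 19.7 and 18.8 FPKM with vehicle and 73.7, 69.9 and 90.2 FPKM with DS-5272 (log2 fold change 1.98 ± 0.12, limma adjusted p = 0.000610), and its rise was larger than those of the 3 Parp members. Zc3hav1, the smallest of the 4 rises and chosen after its values were seen, was called at 0.35 (limma adjusted p = 0.0247) and lost without vehicle replicate 1, 2 or 3 (0.0762, 0.0890 and 0.0871) and with a common upper quartile or total (0.0700 and 0.525). Parp10 and Parp4 rose by 1.10 and 1.0 (adjusted p = 0.00385 and 0.00942 from limma). Tiparp was at 5.93, 15.4 and 18.5 FPKM with vehicle and 12.6, 35.0 and 44.3 FPKM with DS-5272, with replicate 1 low in both groups (adjusted p = 0.138 from limma, 0.00123 with the replicate block and 0.0297 without DS-5272 replicate 1). Parp2, which acts in DNA break repair, was called lower, at 41.0, 37.6 and 36.4 FPKM with vehicle and 27.6, 26.7 and 26.0 FPKM with DS-5272 (log2 fold change −0.50 ± 0.09, limma adjusted p = 0.00671). Parp1, the main DNA-damage-activated enzyme of the family, was at 45.4, 33.1 and 33.4 FPKM with vehicle and 27.0, 24.5 and 18.1 FPKM with DS-5272 (log2 fold change −0.66 ± 0.19, limma adjusted p = 0.0267). The Parp1 call was lost without DS-5272 replicate 3 (limma adjusted p = 0.0542) and without vehicle replicate 1, 2 or 3 (0.0758, 0.0546 and 0.0526). Over all 18 tested relatives of the families and of the ISG15 genes, 6 were called higher and 2 lower by limma, beside 24.2% and 22.0% of all tested genes, and the median of their log2 fold changes was 0.54. With the replicate block the counts were 11 and 2, beside 30.3% and 24.9%.

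**Figure D4:**
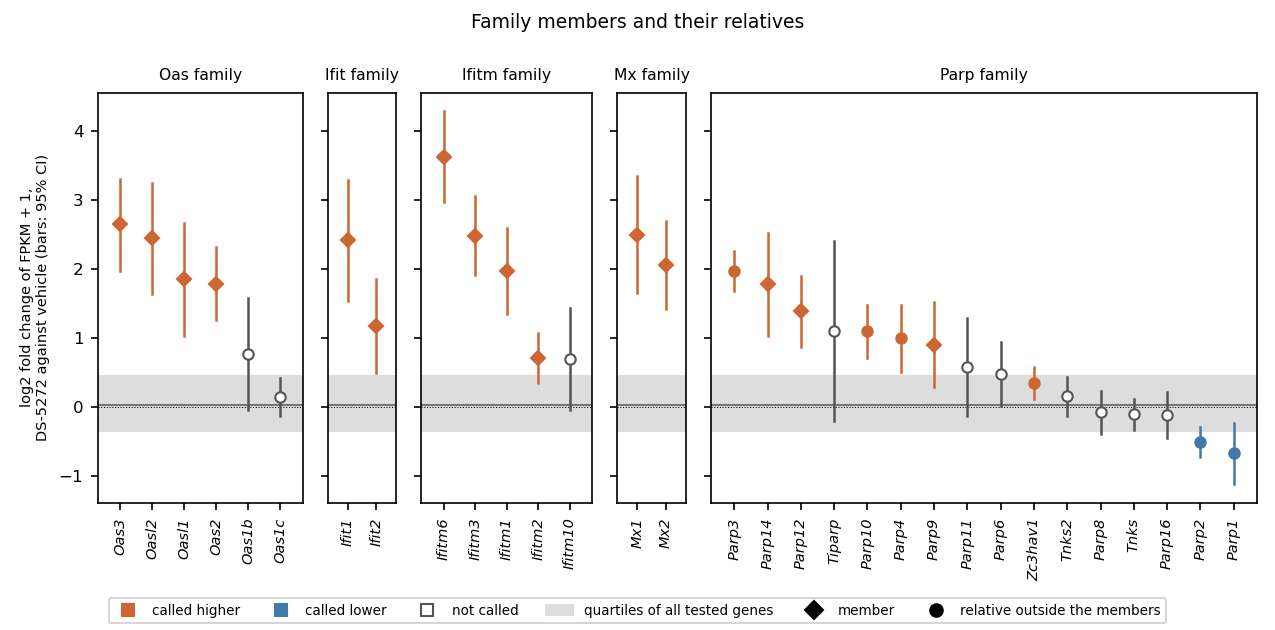
Log2 fold change of FPKM + 1 with 95% confidence intervals from limma for tested members (diamonds) and relatives outside the members (circles) of the 5 families; filled orange is called higher, filled blue called lower and open not called, and the grey band spans the quartiles of all tested genes. Parp1 and Parp2 are the only genes shown in blue, and Parp3 (1.98) is the relative with a single-gene entry that rose most.

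ISG15 is a ubiquitin-like protein that is joined to other proteins through the enzymes UBA7 and UBE2L6 and, in the mouse, the ligase HERC6, and is removed by USP18. Isg15 was at 18.5, 10.4 and 9.73 FPKM with vehicle and 102, 47.3 and 76.9 FPKM with DS-5272, a 5.85-fold higher mean (log2 fold change 2.45 ± 0.33, limma adjusted p = 0.00334). Usp18, which also dampens signaling at the interferon receptor, was at 11.1, 5.97 and 5.36 FPKM with vehicle and 46.1, 23.9 and 36.5 FPKM with DS-5272 (log2 fold change 2.12 ± 0.32, limma adjusted p = 0.00413). In both genes the samples numbered 1 were the highest of their groups and the groups did not overlap. Uba7 rose by 1.36 (adjusted p = 0.00181 from limma), and outside the members Ube2l6 was at 8.94, 5.89 and 7.09 FPKM with vehicle and 21.7, 12.2 and 16 FPKM with DS-5272 (log2 fold change 1.07 ± 0.23, limma adjusted p = 0.0107; 0.0570 with a common total). Herc6 was at 9.71, 6.62 and 6.54 FPKM with vehicle and 19.3, 9.90 and 13.3 FPKM with DS-5272 (log2 fold change 0.78 ± 0.25, limma adjusted p = 0.0408). Its lowest treated value, in DS-5272 replicate 2, was just above vehicle replicate 1. The Herc6 call was lost without vehicle replicate 2 or 3 (limma adjusted p = 0.124 and 0.118), without DS-5272 replicate 1 or 3 (0.0747 and 0.0831) and with a common upper quartile or total (0.0989 and 0.202). Herc6 shares 10.3% of its stretches of 100 bases with an overlapping annotated gene. Trim25, a ubiquitin ligase that can also act on ISG15 targets, was not called, at 37.8, 25 and 27.2 FPKM with vehicle and 62.1, 36.5 and 46.0 FPKM with DS-5272 (log2 fold change 0.66 ± 0.23, limma adjusted p = 0.0537, and 0.00377 with the replicate block). Its groups overlapped, as DS-5272 replicate 2 lay below vehicle replicate 1, yet each treated sample was above the vehicle sample of the same number. Trim25 passed the threshold without vehicle replicate 1 (0.0407, adjusted p from limma) or DS-5272 replicate 2 (0.0316).

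Of the 7 tested members that act on RNA or nucleotides, 6 were called higher, beside 24.2% of all tested genes. Rsad2 encodes viperin, which makes a chain-terminating nucleotide, and was at 6.94, 3.48 and 3.70 FPKM with vehicle and 42.6, 19.9 and 26.9 FPKM with DS-5272 (log2 fold change 2.42 ± 0.32, limma adjusted p = 0.00327). Vehicle replicate 1 and DS-5272 replicate 1 were again the highest of their groups. Isg20 and Znfx1 rose by 1.81 and 1.58 and Ddx60 and Cmpk2 by 1.42 and 1.21, each with an adjusted p from limma of at most 0.00826. Cmpk2 is the neighbour of Rsad2 on chromosome 12, on the opposite strand. Adar, which edits adenosines in double-stranded RNA, was at 28.3, 23.1 and 21.5 FPKM with vehicle and 42.1, 30.5 and 41.0 FPKM with DS-5272 (log2 fold change 0.61 ± 0.16, limma adjusted p = 0.0221). Its groups did not overlap. The Adar call was lost without vehicle replicate 2 or 3 (limma adjusted p = 0.0779 and 0.0799), without DS-5272 replicate 1 or 3 (0.0523 and 0.0584) and with a common upper quartile or total (0.0671 and 0.209). The joined entry of Eif2ak2, the RNA-activated kinase PKR, was at 38.2, 27.1 and 24.6 FPKM with vehicle and 58.8, 31.9 and 41.8 FPKM with DS-5272, with overlapping groups (log2 fold change 0.53 ± 0.25, limma adjusted p = 0.128, and 0.0170 with the replicate block).

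Pnpt1, a mitochondrial RNA-degrading enzyme, was the only tested member with a lower mean, at 26.5, 28.0 and 27.1 FPKM with vehicle and 26.0, 21.2 and 20.9 FPKM with DS-5272 (log2 fold change −0.26 ± 0.11, limma adjusted p = 0.0963). All 3 treated values lay below the 3 vehicle values, though DS-5272 replicate 1 only slightly. Without DS-5272 replicate 1 it was called lower (limma adjusted p = 0.0251), and with the replicate block it was not (0.102).

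Ifi204 and Sp100 were the tested members that act in the nucleus or bind DNA. Ifi204, a member of the HIN-200 family that senses DNA, was at 7.22, 3.03 and 2.99 FPKM with vehicle and 76.1, 45.4 and 67.7 FPKM with DS-5272, a 14.3-fold higher mean (log2 fold change 3.62 ± 0.33, limma adjusted p = 0.00121). Vehicle replicate 1 was over 2 times the other vehicle samples, and each treated sample was over 6 times vehicle replicate 1. Of its stretches of 100 bases 10.7% occur in other annotated genes, most of them in Ifi211, so part of its fragments could belong to a relative. Sp100, a nuclear body protein, rose by 1.01 from a high vehicle level (adjusted p = 0.00397 from limma). In the joined entries, Ifi203 with Mndal was at 48.3, 20.3 and 20.5 FPKM with vehicle and 104, 63.3 and 80.4 FPKM with DS-5272 (log2 fold change 1.54 ± 0.36, limma adjusted p = 0.0140; 0.0520 without vehicle replicate 2). The Phf11 entry, which stands for Phf11d, was at 31.9, 16.8 and 11.6 FPKM with vehicle and 109.7, 59.4 and 80.0 FPKM with DS-5272 (log2 fold change 2.07 ± 0.38, limma adjusted p = 0.00683).

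All 11 remaining tested members, at membranes, secreted or of other function, were called higher, beside 24.2% of all tested genes, with log2 fold changes from 0.83 to 3.68. Ifi27l2a was at 30.4, 16.9 and 13.7 FPKM with vehicle and 196, 236 and 372 FPKM with DS-5272 (log2 fold change 3.68 ± 0.34, limma adjusted p = 0.00123). Like Ifitm6 it was lowest among the treated samples in replicate 1 and highest in replicate 3, while in the vehicle group replicate 1 was highest. Its neighbour on chromosome 12 and relative Ifi27, read under its older symbol, did not move with it, at 61.0, 60.6 and 54.7 FPKM with vehicle and 43.3, 58.7 and 61.3 FPKM with DS-5272 (log2 fold change −0.12 ± 0.15, limma adjusted p = 0.522), and only a common total called that entry lower (0.0346). Rtp4, a chaperone of surface receptors that also binds viral RNA, was at 21.0, 15.0 and 12.7 FPKM with vehicle and 78.8, 54.2 and 87.1 FPKM with DS-5272 (log2 fold change 2.11 ± 0.23, limma adjusted p = 0.00201), and 9.28% of its stretches of 100 bases occur in an overlapping annotated gene. Samd9l, Xaf1, Epsti1 and Trim30a rose by 1.79, 1.76, 1.63 and 1.52, with adjusted p of at most 0.00524 from limma and no call lost in a fit without 1 sample. Bst2, or tetherin, which holds budding virus particles at the cell surface, rose by 1.16 (adjusted p = 0.00774 from limma).

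The calls of the other 4 genes of this group were each lost in at least 1 fit without 1 sample. In the fits without vehicle replicate 2 or 3, 14.8% and 16.2% of all tested genes were called higher, beside 24.2% with all samples. Lgals3bp, a secreted galectin-3-binding protein, rose by 1.74 (adjusted p = 0.0147 from limma), and Ifi35 by 0.83 (0.0132); without vehicle replicate 2 their adjusted p from limma were 0.0551 and 0.0517. Dtx3l rose by 0.99 (adjusted p = 0.0149 from limma; 0.0569 and 0.0524 without vehicle replicate 2 or 3). Tor3a rose by 0.96 (adjusted p = 0.0305 from limma; 0.10 and 0.0909 without vehicle replicate 2 or 3 and 0.0538 without DS-5272 replicate 3). With a common total Ifi35, Dtx3l and Tor3a were not called (0.0947, 0.0751 and 0.145, adjusted p from limma), nor was Tor3a with a common upper quartile (0.0729). Ifi44, which did not pass the filter, was at 0.236, 0.0486 and 0.0621 FPKM with vehicle and 2.30, 0.253 and 0.272 FPKM with DS-5272, with DS-5272 replicate 1 alone above 1 FPKM.

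The genes that make and carry the interferon signal were read from a list of 54 entries in 6 roles, of which 31 passed the filter. Of these 24 were called higher and none lower by limma, beside 24.2% and 22.0% of all tested genes, and their median log2 fold change was 0.84. With the replicate block the counts were 27 and 1, beside 30.3% and 24.9% of all tested genes. None of the 21 interferon genes passed the filter. Ifnb1 was at 0 in every vehicle sample and at 0.187, 0.107 and 0.0648 FPKM with DS-5272. Ifng was at 0.0410, 0.0254 and 0.0232 FPKM with vehicle and 0.0824, 0.157 and 0.304 FPKM with DS-5272, and most interferon alpha genes were listed at 0 in every sample. No fold change was derived from these values.

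Among the receptor chains 3 of 5 rose, beside 24.2% of all tested genes, and all 5 with the replicate block, beside 30.3%. Ifngr2 was at 23.1, 19.6 and 16.8 FPKM with vehicle and 53.9, 36.5 and 42.9 FPKM with DS-5272 (log2 fold change 1.12 ± 0.18, limma adjusted p = 0.00471) and Ifnar2 at 80.9, 72.8 and 71.0 FPKM with vehicle and 131, 116 and 141 FPKM with DS-5272 (log2 fold change 0.77 ± 0.11, limma adjusted p = 0.00397). Ifnar1 was at 16.9, 13.2 and 11.8 FPKM with vehicle and 23.6, 19.5 and 21.5 FPKM with DS-5272 (log2 fold change 0.60 ± 0.15, limma adjusted p = 0.0172). The Ifnar1 call was lost without vehicle replicate 2 or 3 (limma adjusted p = 0.0662 and 0.0637) and with a common upper quartile or total (0.0658 and 0.219). Il10rb, at 62.3, 40.5 and 39.3 FPKM with vehicle and 75, 47.9 and 60.1 FPKM with DS-5272, was called only with the replicate block (0.0349, against 0.224 without it, both adjusted p from limma). The receptor kinases Tyk2, Jak2 and Jak1 rose by 0.84, 0.72 and 0.68 (adjusted p = 0.00243, 0.00793 and 0.0128 from limma; 0.0519 for Jak2 with a common total).

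All 7 listed signal-activated factors were called higher, with and without the replicate block (30.3% and 24.2% of all tested genes). Irf7, the factor that amplifies interferon production, was at 55.7, 34.0 and 26.5 FPKM with vehicle and 278, 147 and 189.9 FPKM with DS-5272 (log2 fold change 2.39 ± 0.32, limma adjusted p = 0.00333), and like many effectors it was highest in the samples numbered 1. Irf5, known in myeloid cells, was at 18.9, 20.7 and 14.3 FPKM with vehicle and 66.3, 83.8 and 94.2 FPKM with DS-5272 (log2 fold change 2.12 ± 0.18, limma adjusted p = 0.000993) and was highest in DS-5272 replicate 3. Stat2 was at 18.6, 17.1 and 14.0 FPKM with vehicle and 56.8, 32.1 and 49.5 FPKM with DS-5272 and Irf1 at 24.4, 30.7 and 33.5 FPKM with vehicle and 49.4, 75.6 and 104 FPKM with DS-5272 (log2 fold changes 1.39 and 1.29, adjusted p = 0.00486 and 0.0102 from limma). For all 7 factors the treated values lay above all vehicle values, which held for 32.1% of all tested genes. Irf3, chosen after its values were seen, had the smallest rise, at 30.2, 28.9 and 29.7 FPKM with vehicle and 35.8, 38.6 and 41.6 FPKM with DS-5272 (log2 fold change 0.37 ± 0.09, limma adjusted p = 0.0182). The Irf3 call was lost without vehicle replicate 1, 2 or 3 (limma adjusted p = 0.0513, 0.0797 and 0.0718) and with a common total (log2 fold change 0.11, adjusted p = 0.408).

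Of the 10 tested nucleic acid sensors 7 were called higher, beside 24.2% of all tested genes. A common total, with which 15.4% of all tested genes were called higher, ended 3 of these calls, those of Tlr9, Ifih1 and Mavs (limma adjusted p = 0.0581, 0.156 and 0.103), the latter pair chosen after their values were seen, and Ifih1 was also lost without vehicle replicate 2 or 3 (0.0508 and 0.0527). Zbp1, a sensor of Z-form nucleic acids, was at 31.8, 19.0 and 14.4 FPKM with vehicle and 165, 91.2 and 129 FPKM with DS-5272 (log2 fold change 2.54 ± 0.32, limma adjusted p = 0.00274). Tlr7 was at 5.77, 3.92 and 4.14 FPKM with vehicle and 22.0, 13.7 and 20.9 FPKM with DS-5272 (log2 fold change 1.81 ± 0.21, limma adjusted p = 0.00227) and the cytosolic RNA sensor Dhx58 at 21.6, 17.2 and 16.7 FPKM with vehicle and 65.5, 44.8 and 69.6 FPKM with DS-5272 (log2 fold change 1.63 ± 0.19, limma adjusted p = 0.00227). Tlr9 was at 5.94, 1.57 and 1.43 FPKM with vehicle and 16.4, 8.25 and 8.12 FPKM with DS-5272 (log2 fold change 1.69 ± 0.46, limma adjusted p = 0.0227). The Tlr9 call was lost without DS-5272 replicate 1 (limma adjusted p = 0.0539) or vehicle replicate 2 or 3 (0.0776 and 0.0704) and with a common total (0.0581). Mb21d1, which encodes the DNA sensor cGAS and was chosen after its values were seen, had lower treated values throughout, at 16.4, 13.5 and 14.7 FPKM with vehicle and 11.1, 12 and 6.07 FPKM with DS-5272. It was called lower only with the replicate block (0.0421, against 0.0736 without it, both adjusted p from limma). With that block 8 sensors were called higher and 1 lower, beside 30.3% and 24.9% of all tested genes. Tmem173, chosen after its values were seen, was the added higher call (0.00387, against 0.0516 without the block, both adjusted p from limma). Among the inhibitors Socs3 was at 4.82, 10.5 and 7.86 FPKM with vehicle and 44.4, 30.8 and 39.9 FPKM with DS-5272 (log2 fold change 2.21 ± 0.26, limma adjusted p = 0.00239), and Ptpn6 and Irf2 rose by 1.11 and 0.95 (adjusted p = 0.00396 and 0.00636 from limma). Socs1 was at 1.44, 1.83 and 1.92 FPKM with vehicle and 2.71, 2.33 and 2.74 FPKM with DS-5272 (log2 fold change 0.40 ± 0.13, limma adjusted p = 0.0457). The Socs1 call was lost in each of the 6 fits without 1 sample (adjusted p from 0.0538 to 0.132 from limma) and with a common upper quartile or total (0.0971 and 0.254). It was also lost with median-ratio scaling, quantile normalization and no filter.

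**Figure D5:**
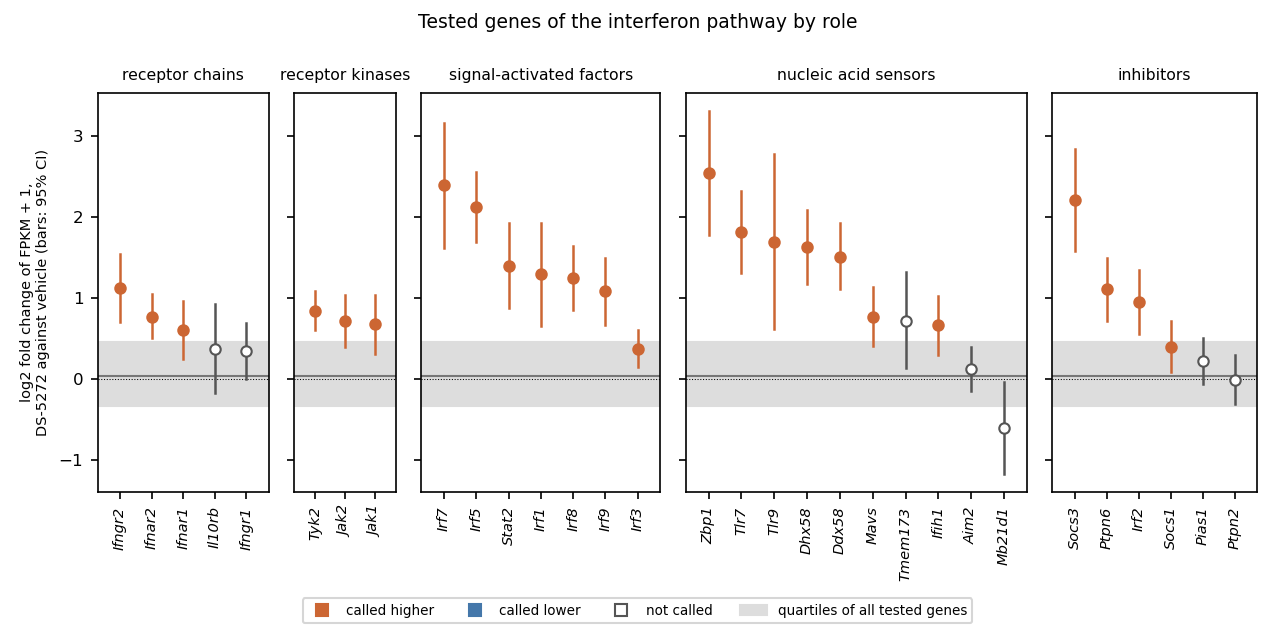
Log2 fold change of FPKM + 1 with 95% confidence intervals from limma for the 31 tested genes of the interferon pathway, grouped by role; filled orange is called higher, open is not called, and the grey band spans the quartiles of all tested genes. Zbp1 (2.54) and Irf7 (2.39) stand highest, and Mb21d1 (−0.61) is the one gene whose point lies below the band.

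Apart from the alternatives named, the tests above are from 1 limma fit of all tested genes with 3 samples per group. Cell composition and RNA content per cell are not known for these samples, and levels of RNA say nothing of protein or of antiviral activity.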

How the data were processed

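RNA-Seq values of 6 samples (3 vehicle, 3 DS-5272) were used as the authors deposited them. Per the paper's methods, strand-specific libraries were read from both ends (2 x 100 nucleotides), trimmed with cutadapt 1.8.1, and aligned to GRCm38 reference transcripts with TopHat2 2.1.1; Cufflinks 2.2.1 gave the deposited FPKM values. The annotation and the use of strand in counting are not given in the sources used here. The depth of each sample is not in the table, and only relative depth was read from values under 0.15 FPKM, so no counting intervals are given.

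Lines sharing a symbol were summed (435 names). The 11130 genes averaging 1 FPKM or more were compared on log2(FPKM + 1) with limma 3.58.1 (R 4.3.3; lmFit, eBayes with trend), two-sided, with Benjamini-Hochberg adjustment over all tested genes and a threshold of 0.05. An exact permutation test of 3 samples against 3 cannot go below p = 0.1. Other steps used pandas 2.3.3, numpy 2.4.6 and matplotlib 3.10.9 under Python 3.11.15, and the fit was tested on simulated data. Members, roles and lists were chosen with earlier results of these data known, and 3 listed genes are not reported here. By rule, all family members, the 6 largest and 4 smallest changes among the others, members not called or overlapping, and up to 4 relatives or pathway genes per role (and each called lower) are named; other names are given by role with ranges.

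Replicate numbers come from the sample titles. Across genes, the difference of each sample from its group mean correlated between same-numbered samples (0.658, 0.209 and 0.430 for numbers 1, 2 and 3), above the limit of 0.1 each time. Samples of unlike number gave from −0.576 to 0.335, and 2 of these pairs were also above the limit: vehicle replicate 2 with DS-5272 replicate 3 (0.335, higher than 0.209 for number 2) and vehicle replicate 3 with DS-5272 replicate 2 (0.185). By the limit, samples of the same number were taken as pairs in the blocked fit and in the counts by pair. These values support such pairs most for number 1. The main calls and adjusted p are from the unblocked fit, which ignores these pairs. Where the block changed a call, the blocked value of a named gene, or the blocked count of its list, is given. With the block 30.3% of all tested genes were called higher and 24.9% lower, beside 24.2% and 22.0% without it. Alternatives were other pseudocounts, filters, scalings, variance models and entries per symbol, the replicate block, and leaving out each sample. Positions, exon overlaps and shared stretches of 100 bases came from GENCODE vM21. Of the 40 tested members, 13 have an exon that overlaps another annotated gene, 7 on the opposite strand (Oasl1, Parp9, Usp18, Adar, Znfx1, Ifi35 and Dtx3l) and 6 on the same strand (Ifitm2, Parp14, Uba7, Herc6, Sp100 and Rtp4), and their values can include its fragments.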

Additional observations from a re-analysis of the deposited data

How the results depend on the processing

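Across the scalings, filters, pseudocount, variance models, entry choice and replicate block that were run, from 31 to 39 of the tested members were called higher by limma, none was called lower, and their median log2 fold change lay between 1.49 and 1.8. The fits without 1 sample gave from 30 (without vehicle replicate 2) to 39 members higher, from 0 to 1 lower (Pnpt1, without DS-5272 replicate 1) and medians from 1.57 to 1.95. The share of all genes called higher in these fits ran from 14.8% (without vehicle replicate 2) to 26.3% (without DS-5272 replicate 1). Across the scalings, filters and other alternatives that kept all samples, it ran from 14.6% (no filter) to 30.3% (replicate block). Requiring a log2 fold change of at least 1 left 31 members, while 9.81% of all tested genes had such a change, called or not. Counting the joined entries and the older symbol as members, an alternative chosen after seeing the data, gave 42 of 46 entries higher, beside 24.2% of all tested genes. The median was then 1.69. With the replicate block 39 members were called higher, beside 30.3% of all tested genes. The block added Trim25 and changed no other call of the 40. The blocked values that changed calls of joined entries, relatives and pathway genes stand beside those genes where they are named. No tested member turned its direction under any of these alternatives. Of the 38 calls, a common total ended 7 and a common upper quartile 4. No filter ended 3 (Parp9, Herc6 and Tor3a), quantile normalization 3 (Ifitm2, Herc6 and Adar) and median-ratio scaling 1 (Herc6). Depth is known only as a ratio between samples, so the number of fragments behind a low value, such as that of Ifitm1 with vehicle, is not known.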
